A study of Mus musculus with 2 samples.

Results

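The 10 genes described here are those of the kinase and phosphatase circuit around translation initiation factor eIF2 and of its transcriptional arm: the eIF2α kinases Eif2ak1, Eif2ak2, Eif2ak3 and Eif2ak4, the substrate Eif2s1, the phosphatase subunits Ppp1r15a and Ppp1r15b, and Atf4, Ddit3 and Trib3. They were chosen by name as genes of this pathway and matched through their Ensembl identifiers, and 10 of 10 were found among 43346 Ensembl genes in the tables, of which 21461 were nuclear and protein-coding. Total RNA was sequenced from erythroid progenitors (CFU-Ery, the cells that form small erythroid colonies), taken as primary cells from male C57BL/6J mice of 5 to 6 weeks, with a bone marrow isolation protocol named in the labels. There was 1 group of 2 libraries, called replicates 1 and 2, each from 1 ng of RNA with added spike-in RNA, and no treatment or genetic change was named. Both libraries carried the same donor record under separate biosample records, so the spread between them may be technical. With 1 group no test between conditions was possible, and values are given per library with the mean ± SD (n = 2).

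In the integrated stress response, 4 kinases that sense different stresses phosphorylate the α subunit of eIF2, which slows most translation while allowing that of a few mRNAs such as Atf4. HRI, the product of Eif2ak1, is inhibited by haem; in erythroid precursors it is known for matching globin translation to the haem supply. ATF4 and CHOP, the product of Ddit3, then activate genes of amino acid supply, redox balance and recovery, and the phosphatase subunit encoded by Ppp1r15a closes the loop by taking the phosphate off eIF2α.

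Short coding stretches show the parts of the circuit that the values below concern. In Eif2s1 (exon 2, GRCm38 chr12:78866650-78866709, plus strand), the capitals mark the codon of the serine that all 4 kinases phosphorylate, residue 52 counting the first methionine and 51 without it. In the phosphatase subunit gene Ppp1r15a, the capitals mark the motif that docks protein phosphatase 1; it spans residues 548 to 551 (exons 2 and 3, chr7:45523739-45523765 and chr7:45523290-45523322, minus strand), with an exon boundary after its first codon.
Eif2s1: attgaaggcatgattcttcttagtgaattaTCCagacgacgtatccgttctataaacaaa
Ppp1r15a: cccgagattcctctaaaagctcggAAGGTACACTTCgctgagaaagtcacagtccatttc

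Promoters are shown for the kinase of highest level, for the phosphatase subunit of highest level and for the gene without a read, from RefSeq on GRCm38.p6, each 250 bases before to 50 after the start. RefSeq windows matched 9 of the 10 genes, all but Ppp1r15b. Motifs were searched on both strands as CCAAT (the CCAAT box), GGGCGG (the GC box), TGACGTCA (the cAMP response element, CRE), TGATGNAA (the core of the element bound by ATF4 with a C/EBP partner) and AGATAA (a site for the erythroid factor GATA1). Over 32851 windows of the same length, 37.4% held CCAAT, 35.7% GGGCGG, 1.79% TGACGTCA, 3.97% TGATGNAA and 11.2% AGATAA. In the Eif2ak1 window (chr5:143817542-143817841, plus strand) the capitals mark 1 CCAAT box and 3 GC boxes, and AGATAA was not in it. In the Ppp1r15a window (chr7:45526219-45526518, minus strand) they mark the CRE, which starts 12 bases before the gene's start. In the Trib3 window (chr2:152344011-152344310, minus strand) they mark the ATF4 element core, read on the opposite strand and placed 14 bases after the RefSeq start. The gene coordinates given below for Trib3 start further downstream, at 152344032, and the core lies before that start. None of the other 8 matched genes had this core in the window. AGATAA was in the Ppp1r15a and Ddit3 windows. These matches describe letters only.
Eif2ak1: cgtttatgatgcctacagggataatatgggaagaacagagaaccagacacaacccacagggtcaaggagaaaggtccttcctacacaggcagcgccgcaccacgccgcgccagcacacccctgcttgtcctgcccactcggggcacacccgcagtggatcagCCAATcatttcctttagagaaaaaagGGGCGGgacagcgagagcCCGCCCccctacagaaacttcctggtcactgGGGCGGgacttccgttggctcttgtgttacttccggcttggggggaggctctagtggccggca
Ppp1r15a: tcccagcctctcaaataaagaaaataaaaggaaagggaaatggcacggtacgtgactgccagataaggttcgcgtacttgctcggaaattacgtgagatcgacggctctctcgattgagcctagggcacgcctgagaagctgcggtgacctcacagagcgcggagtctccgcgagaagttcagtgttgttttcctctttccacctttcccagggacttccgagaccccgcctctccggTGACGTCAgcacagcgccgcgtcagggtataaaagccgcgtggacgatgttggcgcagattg
Trib3: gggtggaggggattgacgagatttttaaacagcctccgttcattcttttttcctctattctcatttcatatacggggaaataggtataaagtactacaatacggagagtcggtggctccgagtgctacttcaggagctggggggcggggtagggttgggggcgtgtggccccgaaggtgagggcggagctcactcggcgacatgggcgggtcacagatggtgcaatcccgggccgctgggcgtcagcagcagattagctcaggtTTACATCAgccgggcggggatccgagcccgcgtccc

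The libraries held 143491647 and 110634458 expected counts (reads assigned to genes, split in part where a read fits several genes), of which 81.2% and 79.0% were mitochondrial ribosomal RNA. Nuclear protein-coding genes took 3.29% and 3.70%, so TPM values (transcripts counted per length and per 1000000) are low throughout; rescaling TPM to these genes alone multiplies them by 43.1 and 37.0. The 10 genes together had 9669 and 8695 expected counts. All 10 of 10 erythroid markers reached 1 TPM in both libraries and summed to 3754 and 4376 TPM, with Hbb-bs at 2455 ± 237 TPM and Gata1 at 5.81 ± 0.184 TPM. Neutrophil and monocyte markers summed to 514 and 695 TPM with 6 of 10 at 1 TPM or more in both libraries, led by S100a9 at 211 ± 54.3 TPM. Macrophage markers summed to 12.6 and 16.2 TPM (6 of 8), B cell markers to 16.0 and 18.0 TPM (3 of 6), and megakaryocyte and stem cell markers to 2.75 and 3.35 TPM (0 of 6), and no marker was at 0 in both libraries. Of all nuclear protein-coding genes, 12.6% reached 1 TPM in both libraries. In bulk RNA, fewer cells of a type and less RNA per cell cannot be told apart, and the part of the other cell types in the values below was not tested.

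Of the 10 genes, 5 reached 1 TPM in both libraries (Eif2ak1, Ppp1r15a, Ppp1r15b, Atf4 and Ddit3), against 12.6% of nuclear protein-coding genes. On the rescaled TPM, 9 of 10 reached 1 in both libraries, against 44.6% of nuclear protein-coding genes; Trib3 was the one below. The order by mean TPM was Ppp1r15a, Atf4, Eif2ak1, Ppp1r15b, Ddit3, Eif2ak2, Eif2s1, Eif2ak3, Eif2ak4 and Trib3. Among neighbours in that order, the ranges over the libraries overlapped for Eif2ak2 and Eif2s1 and for Eif2s1 and Eif2ak3, and for no other pair; with 2 libraries these ranges are narrow. Their median was 1.81 ± 0.668 TPM, against medians of 0.01 and 0.02 TPM over all nuclear protein-coding genes.

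**Figure D1:**
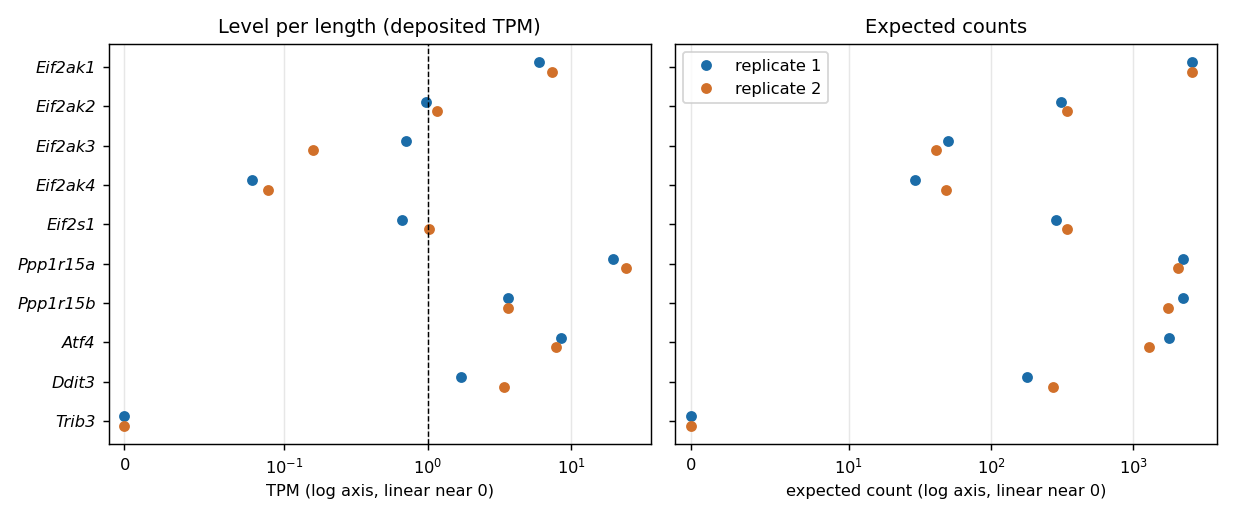
Deposited TPM (left) and expected counts (right) of the 10 genes, on log axes that are linear near 0; each point is 1 library and the dashed line is 1 TPM. Ppp1r15a lies highest in TPM, Eif2ak1 in counts, and Trib3 is at 0 in both libraries.

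Among the kinases, HRI mRNA stood far above the others. Eif2ak1 (chr5:143817788-143904251, plus strand) measured 5.93 TPM in replicate 1 and 7.31 TPM in replicate 2 (6.62 ± 0.976), from 2594 and 2558 expected counts. That placed it at rank 474 of the nuclear protein-coding genes, at percentile 97.8. On the rescaled scale the libraries gave 256 and 270.5 (263 ± 10.4), closer to each other than on the deposited scale. The nuclear protein-coding genes nearest in mean TPM were Gnb2, Cks1b and Tyrobp just above it, at 6.625, 6.62 and 6.62 TPM, and Hnrnpab, Usp32 and Gclc just below it, at 6.615, 6.61 and 6.60 TPM. Gata1, the erythroid transcription factor, had a level near that of Eif2ak1, with a log2 ratio of Eif2ak1 to Gata1 of 0.18 ± 0.26.

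Eif2ak2 (chr17:78852564-78882573, minus strand), which encodes the double-stranded RNA sensor PKR, followed with 0.97 and 1.17 TPM (1.07 ± 0.141) from 309 and 341 counts. Eif2ak3 (chr6:70844515-70905245, plus strand), for the endoplasmic reticulum sensor PERK, had 0.71 and 0.16 TPM (0.435 ± 0.389) although its counts were alike, at 50 and 41. Eif2ak4 (chr2:118388618-118475234, plus strand), for GCN2, which senses uncharged tRNA, had 0.08 and 0.09 TPM (0.085 ± 0.00707) from 29 and 48 counts. Eif2ak1 lay above each of the other kinases in both libraries, with no overlap of ranges.

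Eif2ak1 took 77.1% and 83.7% of the summed TPM of the 4 kinases (80.4 ± 4.68%). Eif2ak2 took 12.6% and 13.4%, Eif2ak3 9.23% and 1.83%, and Eif2ak4 1.04% and 1.03%. Of the expected counts, Eif2ak1 held 87.0% (95% exact binomial interval 85.7 to 88.2) and 85.6% (84.3 to 86.8); such intervals cover counting error only. The log2 ratio of TPM to Eif2ak2 was 2.61 (interval 2.44 to 2.79) and 2.64 (2.48 to 2.81), a mean of 6.18-fold with an SD of 0.02 on the log2 scale. To Eif2ak4 it was 6.21 and 6.34, a mean of 77.6-fold. The ratio to Eif2ak3 differed between libraries on the TPM scale, at 3.06 (2.66 to 3.50) and 5.51 (5.07 to 6.00). These intervals take the TPM per count of a gene as known and leave out error in the split of reads between transcripts. They therefore cannot show that the TPM difference exceeds counting error. On the count scale the ratio was 5.70 and 5.96, with overlapping intervals.

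That gap in Eif2ak3 lay in 1 short transcript, looked at after the values were seen. A retained-intron transcript of 347 nt (ENSMUST00000161316.1) had 18.25 and 1.16 counts but 0.65 and 0.05 TPM, or 92.3% and 35.0% of the gene's TPM. The coding transcript of 4513 nt (ENSMUST00000034093.10) had 31.75 and 32.29 counts and 0.05 and 0.07 TPM. With protein-coding transcripts alone, the share of Eif2ak1 among the kinases was 88.0% and 86.1% (87.1 ± 1.37%).

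Of Eif2ak1, the coding transcript of 4330 nt (ENSMUST00000100487.4) made up 73.2% and 76.2% of its TPM, and a retained-intron transcript of 736 nt (ENSMUST00000154767.1) 18.5% and 18.4%. A further retained-intron transcript of 1654 nt (ENSMUST00000140013.3), under the 10% set for named transcripts, went from 8.38% to 5.42%, with 99.8 and 62.1 counts. For Eif2ak2 the coding transcript (ENSMUST00000024884.4) held 51.9% and 63.0%, and retained-intron and processed transcripts the rest. The tables' gene value weights lengths by transcript, so reads in a short transcript raise a gene's TPM more than reads in a long one.

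The regulators of the kinases were led by chaperones that bind HRI. Of 12 regulator genes, 3 reached 1 TPM in both libraries, against 12.6% of nuclear protein-coding genes, and none was at 0 in both. The 3 were Hspa8 (HSC70) at 16.2 ± 0.969, Hsp90aa1 at 8.73 ± 0.912 and Hsp90ab1 at 5.20 ± 0.467 TPM. Adar, the RNA editing enzyme that limits PKR activation, was next by mean with 0.85 and 1.89 TPM. The lowest were Oma1, a mitochondrial protease upstream of HRI, at 0.065 ± 0.00707 TPM, and Prkra, an activator of PKR, and Impact, an inhibitor of GCN2 activation, which shared a mean of 0.105 TPM. Dele1, the protein that carries the mitochondrial signal to HRI, had 0.73 and 0.70 TPM.

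The substrate gene was lower than the other eIF2 subunits. Eif2s1 (chr12:78861819-78887010, plus strand) had 0.66 and 1.02 TPM (0.84 ± 0.255) from 283.5 and 343.8 counts, all in 1 transcript of 3405 nt. Eif2s2, for eIF2β, had 2.75 and 2.54 TPM, and the X- and Y-linked genes for eIF2γ, Eif2s3x and Eif2s3y, 2.265 ± 0.361 and 3.125 ± 0.502 TPM; Eif2s1 lay under each of these in both libraries, though reads of the near-identical X and Y copies may be split. The log2 ratio of Eif2s1 to Eif2s2 was -1.69 ± 0.53. HRI mRNA exceeded that of its substrate, with gene-level Eif2ak1 at 8.02-fold the TPM of Eif2s1 (log2 ratio 3.00 ± 0.23). Over protein-coding transcripts alone the distance was smaller, with Eif2ak1 at 4.34 and 5.57 TPM against 0.66 and 1.02 TPM for Eif2s1.

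Of the 11 further genes for eIF2 subunits, the exchange factor eIF2B and eIF5, 5 reached 1 TPM in both libraries, against 12.6% of nuclear protein-coding genes. None was at 0 in both, and the median was 1.05 ± 0.255 TPM. Eif5, the GTPase-activating protein of eIF2, was highest at 5.28 ± 0.156 TPM. The lowest were the eIF2B subunit genes Eif2b2 at 0.30 ± 0.0566 and Eif2b3 at 0.17 ± 0.0707 TPM. Eif2s1 shares 13.3% of its 25-base words with other genes, among them 2 processed pseudogenes, Gm7459 and Gm12734. In each library the counts of Eif2s1 and Gm12734 summed to a whole number, so the deposited counts split reads between them. Gm12734 held 2.46 and 15.2 counts, against 283.5 and 343.8 for Eif2s1.

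Ppp1r15a, for the stress-induced phosphatase subunit GADD34, had the highest gene-level TPM of the 10 genes, a rank that it lost on other scales. Over protein-coding transcripts alone Atf4 was higher, at 8.12 ± 0.410 against 6.645 ± 0.742 TPM, and on counts Eif2ak1 was highest. At chr7:45522916-45526268 on the minus strand, it measured 19.4 and 24.0 TPM (21.7 ± 3.27), at rank 117 of nuclear protein-coding genes, from 2241 and 2071 counts. Ppp1r15b (chr1:133131143-133139783, plus strand), for the constitutive subunit CReP, had 3.62 and 3.63 TPM (3.625 ± 0.00707) from 2219 and 1738 counts. In TPM the log2 ratio of Ppp1r15b to Ppp1r15a was -2.42 (interval -2.51 to -2.34) and -2.73 (-2.82 to -2.63), a mean of -2.57 ± 0.22.

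The size of that distance depended on which transcripts were counted. A transcript of 389 nt (ENSMUST00000139268.1, with no entry in the annotation used, so that its type is not given) held 68.2% and 70.0% of the TPM of Ppp1r15a but only 442 and 434 of its counts. The coding transcript of 2333 nt (ENSMUST00000042105.8) had 6.08 and 7.13 TPM from 1767 and 1616 counts. For Ppp1r15b, the coding transcript of 5594 nt (ENSMUST00000052529.3) held 57.1% and 56.9% and a processed transcript of 3688 nt 42.9% and 43.1%. Over coding transcripts alone the genes had 6.645 ± 0.742 TPM for Ppp1r15a against 2.07 and 2.06 TPM for Ppp1r15b, a log2 ratio of -1.68 ± 0.17. On counts, which are not per length, the log2 ratio was -0.01 (-0.10 to 0.07) and -0.25 (-0.35 to -0.16), so in replicate 1 the counts of the paralogs could not be separated.

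**Figure D2:**
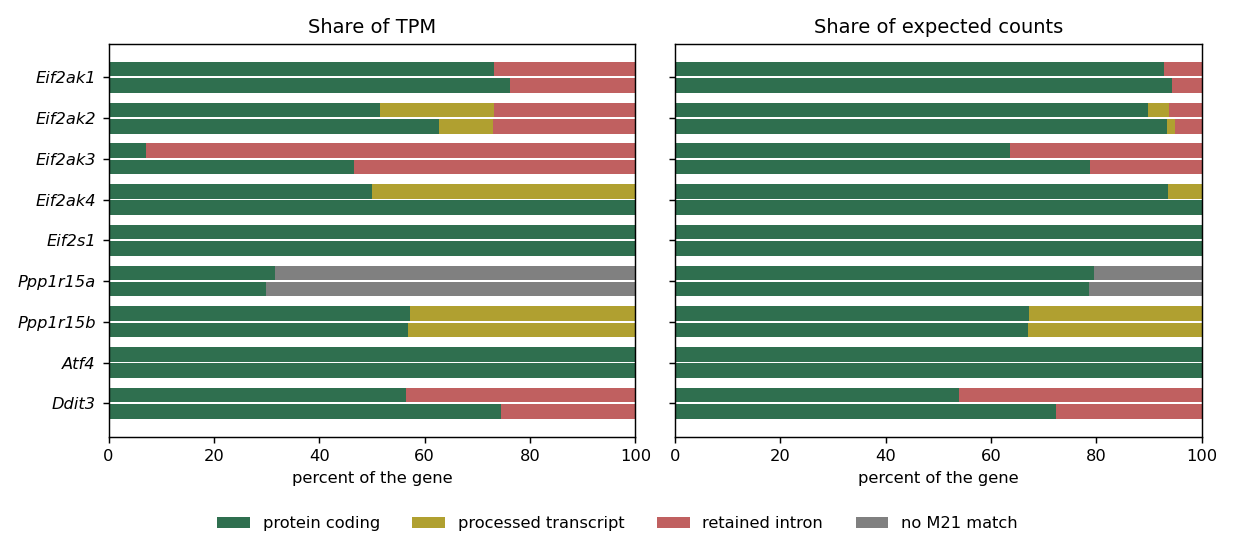
Share of each gene's TPM (left) and expected counts (right) by transcript type, in percent, with replicate 1 as the upper and replicate 2 as the lower bar of each pair. Grey marks transcripts whose identifiers had no match in GENCODE M21; Trib3, at 0 counts, is left out, and the grey share of Ppp1r15a is larger in TPM than in counts.

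The catalytic partners were also present. The catalytic subunit genes of protein phosphatase 1, Ppp1cc, Ppp1ca and Ppp1cb, had 8.47 ± 0.467, 4.46 ± 0.75 and 4.19 ± 0.424 TPM. Ppp1r10, another regulatory subunit of the phosphatase, had 1.28 and 2.49 TPM, and Nck2, an adaptor protein, 0.08 and 0.05 TPM. Thus 4 of these 5 genes reached 1 TPM in both libraries, against 12.6% of nuclear protein-coding genes.

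On the transcriptional side, Atf4 mRNA was high, Ddit3 lower and Trib3 without a read. Atf4 (chr15:80255184-80257541, plus strand) measured 8.41 and 7.83 TPM (8.12 ± 0.410) from 1765 and 1283 counts, at percentile 98.2, all in 1 transcript of 1724 nt. ATF4 is controlled mainly at translation, which RNA levels do not read. Ddit3 (chr10:127290774-127296288, plus strand), for the pro-apoptotic factor CHOP, had 1.71 and 3.40 TPM (2.555 ± 1.20) from 178 and 271 counts. The log2 ratio of Atf4 to Ddit3 was 2.30 (interval 2.07 to 2.53) and 1.20 (1.01 to 1.40), so Atf4 was higher in both libraries. On counts the ratio was 3.31 (3.09 to 3.54) and 2.24 (2.05 to 2.44), so the intervals did not overlap on either scale. The TPM intervals again leave out error in the split of reads between transcripts. Both sets cover counting error only, and other sources of a difference between libraries were not tested. The coding transcript of Ddit3 (890 nt, ENSMUST00000026475.10) had 96 and 196 counts, against 82 and 75 in a retained-intron transcript of 969 nt (ENSMUST00000134686.1). The difference between libraries in Ddit3 counts therefore lay in the coding transcript. Ddit3 shares 8.71% of its 25-base words with other genes, among them Mars on the opposite strand.

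Trib3 (chr2:152337422-152344032, minus strand), for a pseudokinase induced by ATF4 and CHOP, had 0 counts in both libraries. With 3 counts as the limit that a count of 0 allows, per library, the limit on its level was 0.0247 and 0.0316 TPM. This limit takes a gene length averaged over the transcripts of Trib3. For reads in its shortest transcript alone, of 504 nt, the limit would be higher. Atf4 was at 341-fold and 247-fold this averaged limit, and Ddit3 at 69.4-fold and 107-fold. The deposited posterior mean TPM of Trib3 was 0.04 and 0.05, above this limit. These folds therefore hold for the maximum likelihood TPM and the 3-count limit at the averaged length only. Trib3 shared no 25-base word with another gene.

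Of 26 target genes of ATF4 and CHOP, 6 reached 1 TPM in both libraries (12.6% of nuclear protein-coding genes did) and 6 had 0 counts in both (9033 of 21461 nuclear protein-coding genes did), with a median of 0.278 ± 0.0813 TPM. The highest were Slc7a5 and Slc3a2, the subunits of a large neutral amino acid transporter, at 5.43 ± 0.799 and 3.56 ± 0.099 TPM, Asns, asparagine synthetase, at 3.87 and 2.03 TPM, and Nars, asparaginyl-tRNA synthetase, at 1.51 and 2.19 TPM. Genes with 0 counts in both libraries were Vldlr, Stc2, Aldh1l2, Cth, and the genes of the stress-induced secreted factors Fgf21 and Gdf15. Chac1, a glutathione-degrading enzyme and like Trib3 a target of this arm, had 0 and 19 counts; it was named after its values were seen.

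Of 10 dimerisation partners of ATF4 and CHOP, all bZIP transcription factors, 1 reached 1 TPM in both libraries, near the 12.6% of nuclear protein-coding genes, and their median was 0.173 ± 0.0106 TPM. It was Nfe2l2, the antioxidant regulator NRF2, at 2.34 ± 0.0283 TPM. Cebpg, a partner of ATF4, followed at 0.75 and 1.16 TPM, Fos at 0.78 and 0.70 TPM and Cebpd at 0.37 and 0.20 TPM. Batf3 and Atf5, itself a target of this arm, were lowest, with Atf5 at 5 and 0 counts. Of 14 genes of the endoplasmic reticulum stress response outside eIF2, 5 reached 1 TPM in both libraries, against the same 12.6%. Calr, Hsp90b1 and Hspa5, chaperones of that compartment, had 7.82 ± 2.23, 6.69 ± 0.0566 and 4.595 ± 0.163 TPM, Herpud1 1.18 ± 0.226 TPM, and the lowest were Ern1, for the sensor IRE1α, at 0.27 ± 0.0849 TPM and Atf6b, a relative of the sensor gene Atf6, at 0.18 ± 0.0707 TPM.

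**Figure D3:**
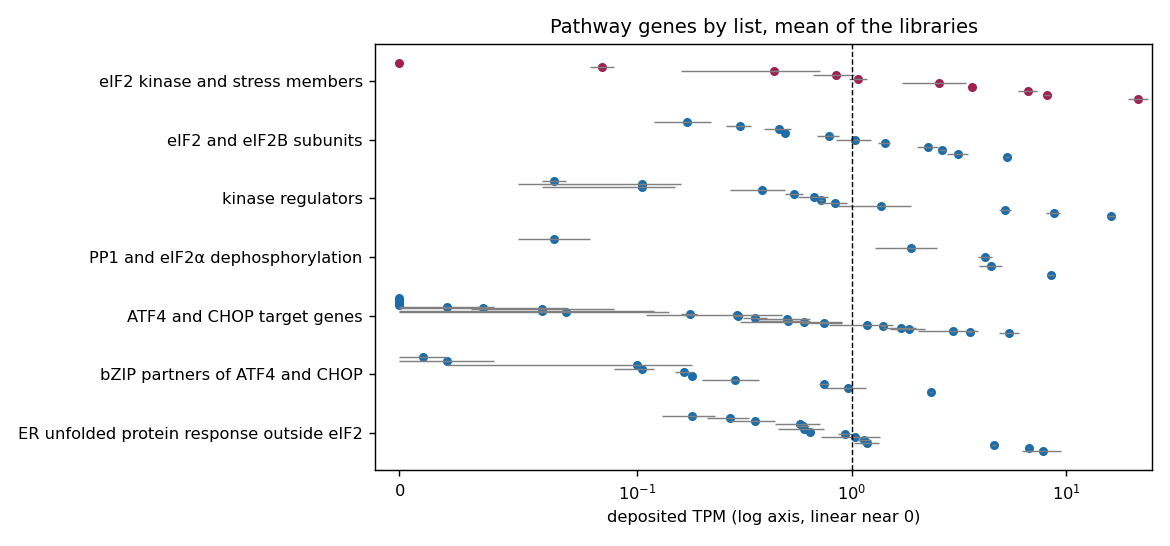
Mean TPM of the libraries for each gene (points), by group, with a line from the lower to the higher library, on a log axis that is linear near 0; the dashed line is 1 TPM. The 6 target genes at 0 stand at the left of their row, while the highest of that list, Slc7a5, is at 5.43 TPM.

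Leader sequences of the mRNAs were compared because upstream ATG triplets take part in the translational control of Atf4, Ddit3 and Ppp1r15a. Using the coding transcript with the most TPM in GENCODE M21, 6 of the 10 genes had at least 2 ATG triplets before the coding start, against 26.0% of 11555 expressed nuclear protein-coding genes, and 7 had at least 1, against 47.9%. Atf4, Ppp1r15a, Ppp1r15b and Eif2ak3 had 3 each, Ddit3 and Eif2s1 2 each and Eif2ak2 1. Atf4, Ddit3 and Ppp1r15a were the reason for the comparison and are among the 6, so their triplets are no independent result. Eif2ak1, Eif2ak4 and Trib3 had none. Trib3 had no reads, unlike the expressed genes, and was taken with its only quantified coding transcript. For Eif2ak4 the transcript used had 0 counts in replicate 1 and 48 in replicate 2. Leaders ran from 91 nt in Eif2ak4 to 604 nt in Ppp1r15b and 594 nt in Atf4, with a median of 150 nt over the expressed genes. Of the 10 genes, 8 had a leader longer than that median; the part of leader length in the triplet counts was not tested.

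The libraries were compared gene by gene. On centred log2(TPM + 1), over genes averaging 20 or more expected counts, 0 of the 9 genes tested were over 2-fold apart, against 0.628% of 9878 genes; Trib3 fell below the filter. This is no result about the 10 genes: the share over all genes is near 0 as well, and a pseudocount of 1 leaves little room for a 2-fold difference in a gene under 1 TPM, as 4 of the 10 genes were in replicate 1 beside Trib3. The widest were Ddit3 at -0.65 (replicate 1 minus replicate 2) and Eif2ak3 at 0.61. Eif2ak1 differed by -0.22, Ppp1r15a by -0.25, Ppp1r15b by 0.04 and Atf4 by 0.14. With a pseudocount of 0.1 TPM, or on rescaled TPM, Eif2ak3 passed 2-fold at 1.75 and 2.11, as did 10.4% and 17.8% of all genes. Its deposited TPM of 0.71 and 0.16 differed by a log2 of 2.15, while its raw counts differed by a log2 of 0.29.

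**Figure D4:**
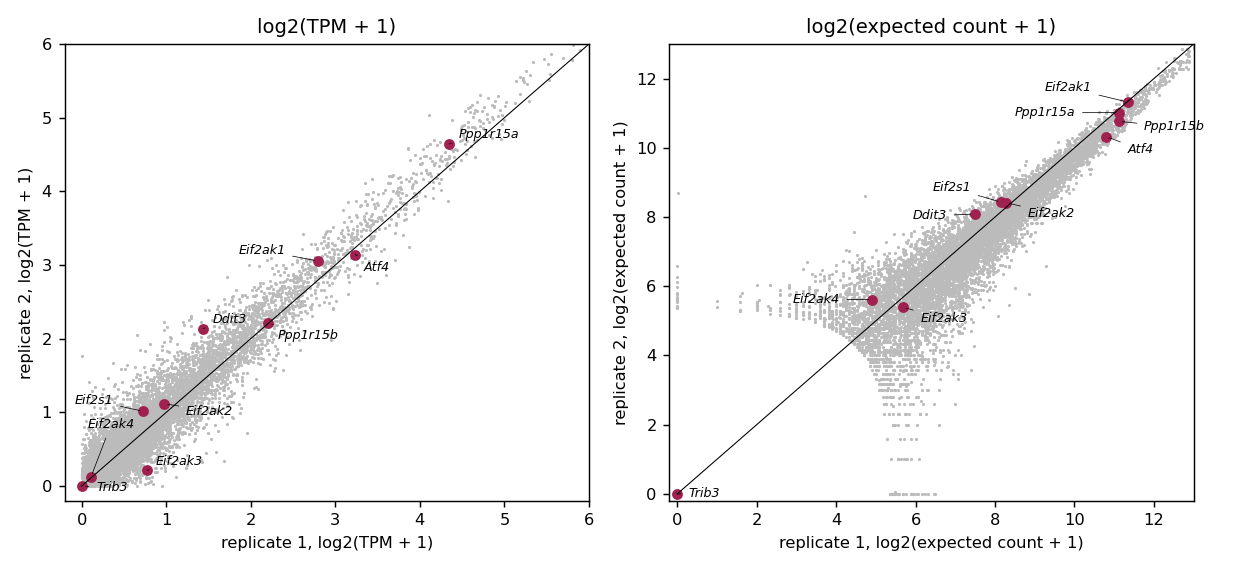
Replicate 1 (horizontal) against replicate 2 (vertical) as log2(TPM + 1) on the left and log2(expected count + 1) on the right; grey points are genes averaging 20 or more expected counts, coloured points the 10 genes, and the line marks equality. Ddit3 lies above the line in both panels, and Eif2ak3 is farther from the line in TPM than in counts.

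Protein-coding transcripts held under 50% of the TPM in both libraries for 0 of 6 genes with at least 50 mean counts and all transcripts matched (Eif2ak1, Eif2ak2, Eif2s1, Ppp1r15b, Atf4 and Ddit3), against 10.2% of 6915 nuclear protein-coding genes. Ppp1r15a was outside this count because of its unmatched transcripts. Several of the genes overlap others on the opposite strand. Eif2ak1 shares 11.2% of its 25-base words with other genes, mainly Aimp2 and Ankrd61, and Ppp1r15b 11.7%, mainly with Gm26616. Counts of Eif2ak1 and Aimp2 (98.7 and 49.5 counts) and of Ppp1r15b and Gm26616 (46.8 and 12.4 counts) summed to whole numbers in each library, within 0.01. Use of strand in counting is not given in the sources used here, so reads from these antisense partners cannot be told apart. The counts of Aimp2 and Gm26616 were small beside those of Eif2ak1 and Ppp1r15b. Ankrd61, also opposite Eif2ak1, had 163 and 174 counts. Mars, opposite Ddit3, had 266 and 209 counts, against 178 and 271 for Ddit3. The part of Mars reads in the Ddit3 values was not tested.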

How the data were processed

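Total RNA from 1 group of 2 CFU-Ery libraries was quantified by the submitters on mm10 with GENCODE M4, per the labels and the deposited descriptions; aligner, quantifier and strand setting were not given in the sources used here. Per the file headers, the deposited gene and transcript tables hold expected counts, TPM, FPKM and, for transcripts, the percent of the gene's TPM, with posterior mean versions of these. Names, coordinates and transcript types came from GENCODE M21 on GRCm38, the same assembly, matched by identifier without version. Genes were compared as deposited TPM, and on TPM rescaled so that nuclear protein-coding genes sum to 1000000. Ratios carry 95% exact binomial counting intervals. Libraries were compared as log2(TPM + 1), median-centred (shift -0.05), for genes averaging 20 or more expected counts. This step was tested on simulated data with known changes at all levels, each larger than the 2-fold limit for a call. It recovered changes in genes of 5 TPM or more and missed most of those in genes under 1 TPM. Changes near 2-fold were not simulated. The simulated noise was counting error only, with a fixed TPM per count for each gene, so shifts between transcripts were not covered. No test between groups was possible (smallest exact sign-flip p of 0.5).

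The members and lists were chosen with earlier results of these data known. Named genes were all members, the 4 highest and 2 lowest of each pathway list and any at 0 in both libraries. The 3 genes on each side of Eif2ak1 by mean TPM were named too. So were transcripts with at least 10% of the TPM of a member with at least 50 mean counts. Dele1 and Chac1 were named besides these, and of the marker lists only Hbb-bs, Gata1 and S100a9. Alternatives changed thresholds, units, scaling, pseudocount, filter and libraries. Python 3.11.15, pandas 2.3.3, numpy 2.4.6, scipy 1.17.1, Biopython 1.88, matplotlib 3.10.9, R 4.3.3, edgeR 4.0.16 (TMM factors) and DESeq2 1.42.0 (size factors) were used. No count model was fitted.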

Additional observations from a re-analysis of the deposited data

How the results depend on the processing

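Neither the log2 ratio of Ppp1r15b to Ppp1r15a nor that of Atf4 to Ddit3 changed sign, but other values did. The log2 ratio of Ppp1r15a to Eif2ak1 (1.71 in TPM) was -0.26 on counts. That of Eif2ak1 to Gata1 (0.18) was -0.002 in replicate 1 and 0.36 in replicate 2. The difference between libraries in Eif2ak4 (0.03) was -0.04 on rescaled TPM and -0.91 with TMM factors. The number of the 10 genes detected (5) became 3 at a minimum of 5 TPM, 9 on rescaled TPM and 9 by at least 10 expected counts; that of the ATF4 and CHOP targets (6) became 0 and 16 at 5 TPM and on rescaled TPM. The share of Eif2ak1 among the kinases (80.4%) was 86.3% on expected counts and 87.1% over protein-coding transcripts. The log2 ratio of Ppp1r15b to Ppp1r15a (-2.57) was -0.13 on counts and -1.68 over protein-coding transcripts, and that of Atf4 to Ddit3 (1.75) was 2.78 on counts. The number of the genes over 2-fold apart (0) became 1, Eif2ak3, with a pseudocount of 0.1 TPM and 1 on rescaled TPM; it was 0 with TMM factors, DESeq2 size factors, other count filters and centred counts. The restriction to protein-coding transcripts and the centred counts were chosen after seeing the data. With 1 library left out, detected genes numbered 5 to 7, detected targets 6 to 7, the Eif2ak1 share ran from 77.1% to 83.7%, and the log2 ratios from -2.73 to -2.42 and from 1.20 to 2.30. No paired analysis was possible because there is 1 group. Depth limits Eif2ak3 and Eif2ak4, with 29 to 50 counts per library.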
